A study of Mus musculus with 37 samples.

Results

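The 7 genes Sox10, S100b, Th, Dbh, Prph, Uchl1 and Ret, commonly used as markers of peripheral neurons and Schwann cells, were followed through whole-transcriptome sequencing (WTS) of mouse ureter and bladder. They were picked by gene symbol, with earlier results of these data known, and they are 7 of the 24421 genes in the deposited table. The 37 libraries came from female BALB/c mice (WT), of which 10 received the urinary carcinogen N-butyl-N-(4-hydroxybutyl)nitrosamine (BBN) for 18 weeks and 3 did not. The UT group held 11 libraries of upper urinary tract on the side with cancer after BBN, and mouse 5 gave both its right and its left side. All 11 are labelled as the cancer side and were kept, although a legend of the study counts fewer UT libraries without naming any as left out. UT 9 was left out as an alternative. The UN group held 7 libraries of the side without cancer in BBN-treated mice. The U group held 6 libraries, the right and left ureters of the 3 untreated mice. Bladders of the same animals gave 10 BBN bladder libraries and 3 untreated bladder libraries. The sample code of BBN bladder 6 holds a T where those of the other 9 hold an N, while its title and tissue labels are those of the group. Libraries are named by group and mouse number, with R or L where both sides of a mouse were in 1 group.

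The ureter and bladder are supplied by sympathetic, parasympathetic and sensory nerve fibres, whose cell bodies lie mostly in ganglia outside the organ, so that tissue RNA holds little of the neurons' own messenger RNA. The Schwann cells that wrap these fibres lie with their nuclei inside the organ. Sox10 encodes the transcription factor that sets and keeps the identity of Schwann cells and other neural crest derivatives, and S100b a calcium-binding protein abundant in glia and also made by other cells, adipocytes included. Th encodes tyrosine hydroxylase, the rate-limiting enzyme of catecholamine synthesis, and Dbh the enzyme that turns dopamine into noradrenaline. Prph encodes peripherin, an intermediate filament of peripheral neurons. Uchl1 encodes a ubiquitin hydrolase abundant in neurons, and Ret the receptor tyrosine kinase that receives ligands of the GDNF family through GFRα co-receptors.

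Library totals ran from 3557697 to 18793560 counts with a median of 13874286, and 4 libraries (UN 6 and BBN bladders 1, 3 and 4) held at most 7820510, against at least 9724542 in the others. In these 4, the 10 most abundant genes took 21.5 to 35.5% of counts, against at most 17.5% in any other library. BBN bladders 1, 3 and 4 had the most genes with a count, 21763 to 21994. The 4 are called shallow here, but they differed in more than depth, and the part of this in their values was not tested. Markers of other cell types differed widely between groups. The summed level of 8 adipocyte genes ran from 48920 to 73771 CPM (a gene's count divided by its library's total, on the usual common scale) in U, from 11130 to 64593 in UN, from 125 to 41340 in UT and from 149 to 5199 in both bladder groups. The 8 urothelial genes summed to 29.8 CPM in UN 2, against 1017 or more in every other library. In UN 2 each of these 8 genes lay below its lowest value in the other UN libraries, with Upk2 at 0.274 CPM against at least 21.6. UT 4 alone held much kidney tubule RNA, with a summed level of 2455 CPM for 8 genes. Shares of adipocyte, muscle, urothelial and nerve tissue in a library were not measured otherwise, and in bulk tissue fewer cells of a type and less RNA per cell cannot be told apart.

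**Figure D1:**
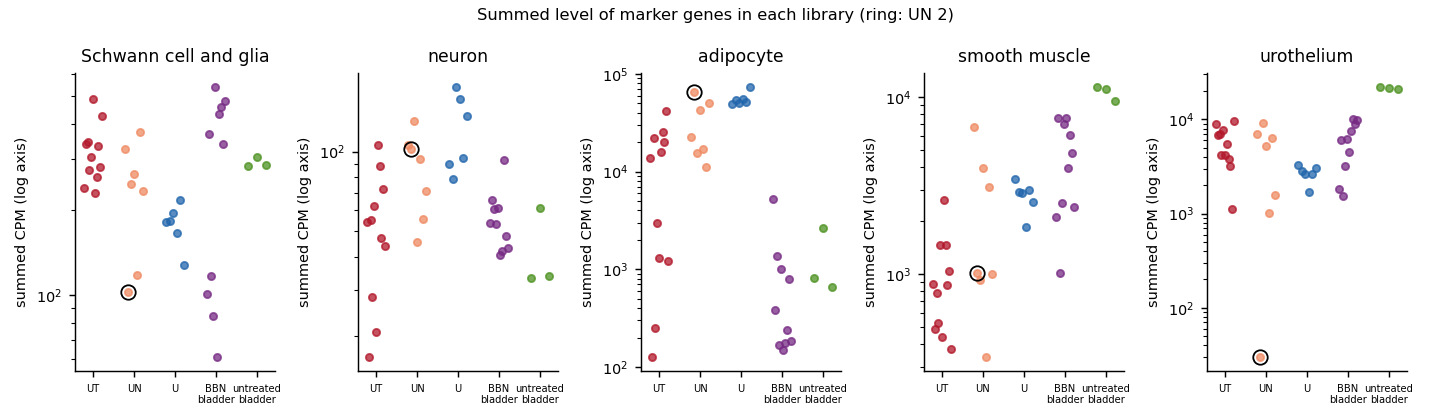
Summed CPM of marker genes (vertical log axes) in each library by group (points), for Schwann cell and glial, neuronal, adipocyte, smooth muscle and urothelial genes. Adipocyte genes were high in U and low in both bladder groups, and UN 2 (ring) stood apart from all other libraries in urothelial genes, at 29.8 CPM.

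All members were expressed at low levels. The 7 genes together summed to between 0.992 and 8.67 CPM in UT, 3.87 and 15.7 in UN, 9.14 and 14.3 in U, 1.51 and 15.5 in BBN bladder, and 15.9 and 19.5 in untreated bladder. Per kilobase of exon, the highest member level was that of Uchl1 in untreated bladder, 7.71 ± 0.0615 CPM per kb (SD, n = 3), followed by Uchl1 in U at 1.91 ± 0.584 (SD, n = 6). Next came S100b in U, with 1.38 ± 0.378 CPM per kb (SD, n = 6). Th and Dbh had the lowest means in 4 of 5 groups, whereas in UN the mean of Th (0.272 CPM per kb) lay above that of Sox10 (0.240). Counts of at least 1 were found in 36 of 37 libraries for S100b and Ret, in 34 for Prph, 33 for Uchl1, 32 for Sox10, 19 for Th and 17 for Dbh.

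**Figure D2:**
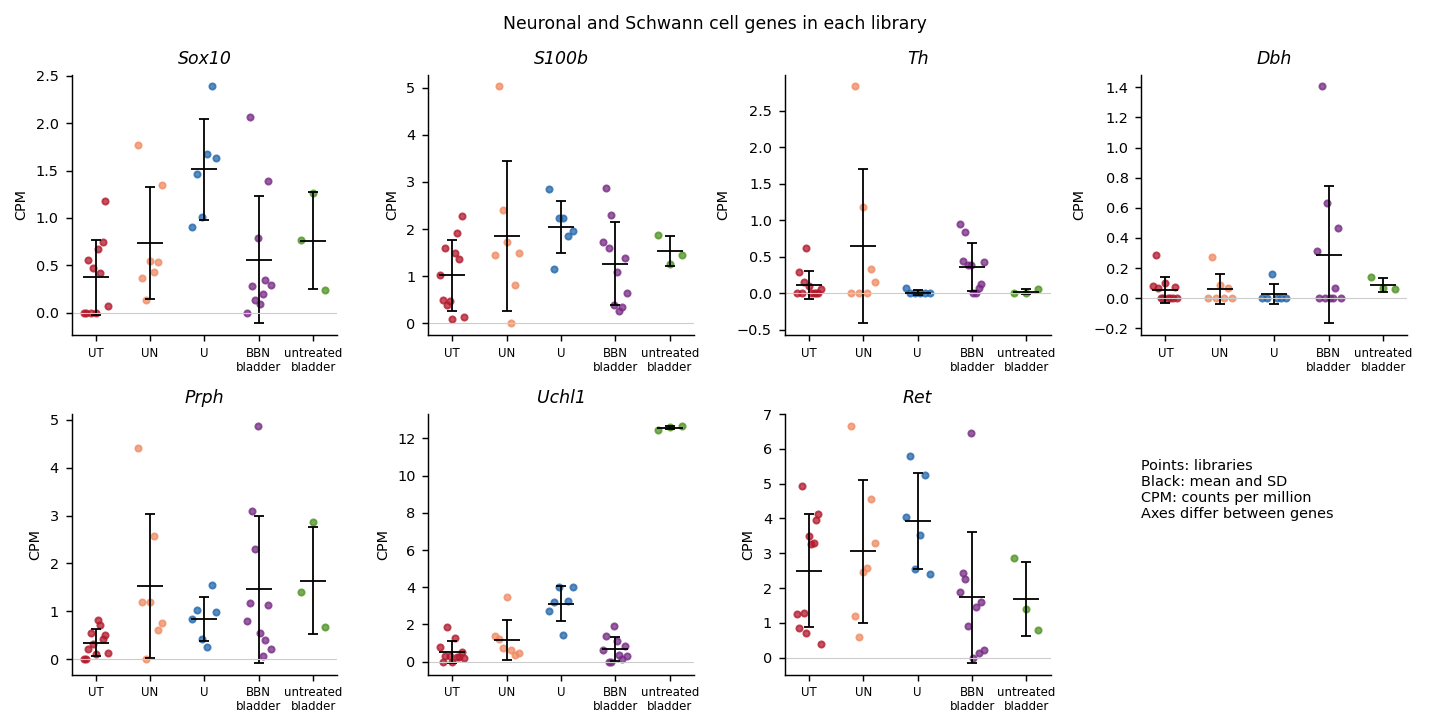
CPM of the 7 genes (vertical axes, linear and different for each gene) in each library by group (points), with the group mean and SD in black. Uchl1 in untreated bladder (12.5 to 12.7 CPM) lay above every other library, Sox10 was highest in U, and Th was at or near 0 in U and untreated bladder.

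The names of the genes were set against defining markers of the cells, as Spearman correlations of log2(CPM + 0.5) over the 37 libraries. These are descriptions over libraries that share mice, depth and tissue makeup. Schwann cell markers did not all behave alike. Sox10 varied with Cdh19 (0.70), but not with Erbb3 (-0.12) or with the summed level of 16 Schwann cell and glial genes (-0.03). After the group means were subtracted, its values were 0.64 for Cdh19 and 0.10 for Erbb3. Ret, listed here as a neuronal gene, showed the same split, with 0.70 for Cdh19 and -0.14 for Erbb3. Its values for the neuronal genes Snap25 and Slc6a2, the noradrenaline transporter, were -0.02 and 0.14, and 0.34 and 0.47 after subtraction.

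Prph varied with both kinds of marker, with 0.55 for Cdh19, 0.54 for Elavl4 and 0.44 for Snap25, but not with all of either kind, with -0.26 for Erbb3, 0.19 for Tubb3 and 0.07 for Slc6a2. Uchl1 gave 0.34 with Cdh19, 0.14 with Elavl4, -0.25 with Snap25, -0.33 with Tubb3, a neuronal tubulin, and -0.53 with Slc6a2. After subtraction the last 3 were 0.21, 0.06 and -0.11. S100b gave 0.42 with Cdh19 and -0.53 with Erbb3. With the summed adipocyte genes the values were 0.58 for Ret, 0.57 for Sox10 and 0.48 for S100b, and 0.49, 0.48 and 0.59 after subtraction. Th and Dbh had too few counts to be placed in this way.

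The first question was how the carcinogen-exposed ureter without cancer differed from the untreated ureter. Gene-wise tests were made with edgeR on all 37 libraries. A gene was called where its adjusted p, the false discovery rate (FDR), was under 0.1 and its level differed by 2-fold or more. Of the members, 6 passed the filter on low counts and Dbh did not. In UN against U, 1 of these 6 was called, against a background of 9.36% of the 18974 genes tested (8.4% called higher). That gene was Th, higher in UN. No untreated library held more than 1 count of Th. It therefore passed the filter only through libraries of BBN-treated mice, so its entry to the test was not independent of its level there. The median log2 fold change of the 6 tested members was -0.31, against 0.20 over all genes tested.

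Th was at 0 in UN 1, UN 3 and UN 6, and at 0.150 CPM in UN 9, 0.336 in UN 7, 1.19 in UN 4 and 2.83 in UN 2. In U, 1 count in U 1R (0.0696 CPM) was the only one in 6 libraries. The groups overlapped at 0, and most of the UN signal lay in 2 of 7 libraries: UN held 51 counts in 4 libraries, 31 of them in UN 2. The fitted log2 fold change was 5.18 (95% interval 2.23 to 8.12, adjusted p = 0.0283 by edgeR), but with 1 count in U it depends on the prior count of the fit. The ratio of summed rates was 57.9, with a 95% counting interval of 9.93 to 2331 that leaves out the spread between animals. Without UN 2 the call was lost (3.72, adjusted p = 0.101). With the mouse as a random-effect replicate block in limma voom it was lost as well (2.44, adjusted p = 0.212). Without that block limma voom gave the same log2 fold change of 2.44 with an adjusted p of 0.185. UN 2 was also the library with almost no urothelial RNA and the most adipocyte RNA of its group, and the part of this in its Th level was not tested.

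The RefSeq sequence before the Th start is shown because Th was the member that rose, and its promoter carries the cAMP response element. It is the 250 bases upstream of the RefSeq start on GRCm38.p6, chr7:142899996-142900245, minus strand, read 5′ to 3′. Capitals mark the element TGACGTCA, 45 bases before the start, and the GC box GGGCGG, 220 bases before it. Of 32851 mouse promoters of this length, 1.55% held the first and 32.7% the second on either strand.
Th: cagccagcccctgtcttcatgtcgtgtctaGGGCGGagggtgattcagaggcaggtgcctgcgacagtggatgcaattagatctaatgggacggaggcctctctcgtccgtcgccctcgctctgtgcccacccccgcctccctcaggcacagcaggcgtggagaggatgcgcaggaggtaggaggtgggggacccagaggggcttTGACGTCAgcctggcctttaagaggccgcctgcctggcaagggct

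The other 5 tested members were not called in UN against U. Uchl1 ran from 0.336 to 3.47 CPM in UN with a median of 0.735, and from 1.46 to 4.04 in U with a median of 3.25. All UN libraries but UN 4 lay below the lowest U library, and the log2 fold change was -1.48 (SE 0.71, adjusted p = 0.210 by edgeR). With the mouse as a random-effect replicate block, Uchl1 was called lower in UN (-1.87, SE 0.58, adjusted p = 0.0669 by limma). Without a block, limma voom called it as well (-1.82, adjusted p = 0.0570).

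The Sox10 level was 0.134 to 1.77 CPM in UN, with a median of 0.538, and 0.904 to 2.39 CPM in U, with a median of 1.55. The groups overlapped, and the log2 fold change was -1.15 (95% interval -2.78 to 0.47, adjusted p = 0.412 by edgeR). The intervals for S100b (-1.45 to 1.21), Prph (-0.88 to 2.48) and Ret (-1.80 to 0.80) also included 0 and, in each case, changes of more than 2-fold in 1 direction or both. Dbh, with 5 counts in UN and 3 in U, gave a ratio of 1.89 with a 95% counting interval of 0.368 to 12.2.

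The second question was how the cancerous ureter differed from the untreated ureter. In UT against U, 2 of 6 tested members were called, Uchl1 and Sox10, both lower in UT, where 26.5% of all genes tested were called and 9.99% were called lower. With 6 genes, 2 calls lay near that background. The median log2 fold change of the 6 was -1.39, against 0.10 over all genes.

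Uchl1 was at 0 in 2 of 11 UT libraries, with a median of 0.312 CPM and a highest value of 1.87 in UT 4. Only UT 4 exceeded the lowest U library, U 2L at 1.46 CPM. The log2 fold change was -2.82 (SE 0.63, adjusted p = 8.63e-04 by edgeR), about 7.05-fold lower. The call was kept in each of the alternatives run, with an adjusted p of at most 0.0152. Smooth muscle and adipocyte genes fell with it: 6 of 8 smooth muscle genes (378 to 2601 CPM in sum in UT, 1849 to 3424 in U) and 8 of 8 adipocyte genes were called lower in UT. Immune genes rose, 6 of 8. The part of these cells in the result was not tested.

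Sox10 was at 0 in 4 of 11 UT libraries, with a median of 0.418 CPM and a highest value of 1.18 in UT 9. Only UT 9 lay above the lowest U library, U 1R at 0.904 CPM. The log2 fold change was -2.26 (SE 0.73, adjusted p = 0.0177 by edgeR), about 4.78-fold lower. The call was lost when libraries of 1 mouse and group were summed (-2.20, adjusted p = 0.103), which left 3 untreated mice. Of 15 Schwann cell and glial genes tested, 5 were called higher in UT, where 16.5% of all genes were, and 1 lower, with a median log2 fold change of 0.14. The gene that moved with Sox10 was Cdh19, a cadherin of Schwann cell precursors (-1.62, SE 0.73, adjusted p = 0.0928 by edgeR). Those that rose were Ngfr, Egr2, Ncmap, Erbb3 and Mbp, of which Ngfr is also made by many stromal and basal epithelial cells, Egr2 is an early response gene in lymphoid and myeloid cells and Erbb3 is expressed by epithelia.

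S100b ran from 0.103 to 2.28 CPM in UT with a median of 1.03, and from 1.15 to 2.85 in U with a median of 2.09. The groups overlapped, and the log2 fold change was -1.24 (SE 0.60, adjusted p = 0.122 by edgeR). With the mouse as a random-effect replicate block S100b was called lower (-1.61, adjusted p = 0.0329 by limma), and limma voom without a block gave -1.64 and also called it. In all, S100b passed in 8 of 15 other settings, among them DESeq2 (-1.31, adjusted p = 0.0895) and the edgeR fit without UT 9. It also passed in edgeR when UT 7 alone was left out. The S100b gene overlaps Dip2a on the opposite strand, which averaged 24.5 CPM over the 37 libraries, far above S100b, and whether reads of both were told apart by strand is not known here.

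Prph ran from 0 to 0.815 CPM in UT and from 0.248 to 1.54 in U, with medians of 0.312 and 0.906. The ranges overlapped, with a log2 fold change of -1.54 (SE 0.76, adjusted p = 0.126 by edgeR), and Prph passed when UT 6 or UT 7 alone was left out. It passed in 4 of 15 other settings, which were DESeq2 (adjusted p = 0.0982), voom with a variance for each group (0.0295), the fit without the 4 shallow libraries (0.0742) and separate fits by organ (0.0731). Ret ran from 0.397 to 4.94 CPM in UT and from 2.41 to 5.80 in U, and its log2 fold change of -0.92 (SE 0.59, adjusted p = 0.253) did not pass, although voom with a variance for each group called it lower (-1.19, adjusted p = 0.0151). Th held 16 counts in 5 of 11 UT libraries, 8 of them in UT 5R at 0.623 CPM. Against 1 count in U this gave a ratio of 9.87 (95% counting interval 1.53 to 414), and the edgeR test did not pass (adjusted p = 0.189). Without U 1R, the library that holds this count, it passed (3.58, adjusted p = 0.0987). Dbh held 8 counts in UT, a ratio of 1.65 to U with an interval of 0.395 to 9.63.

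**Figure D3:**
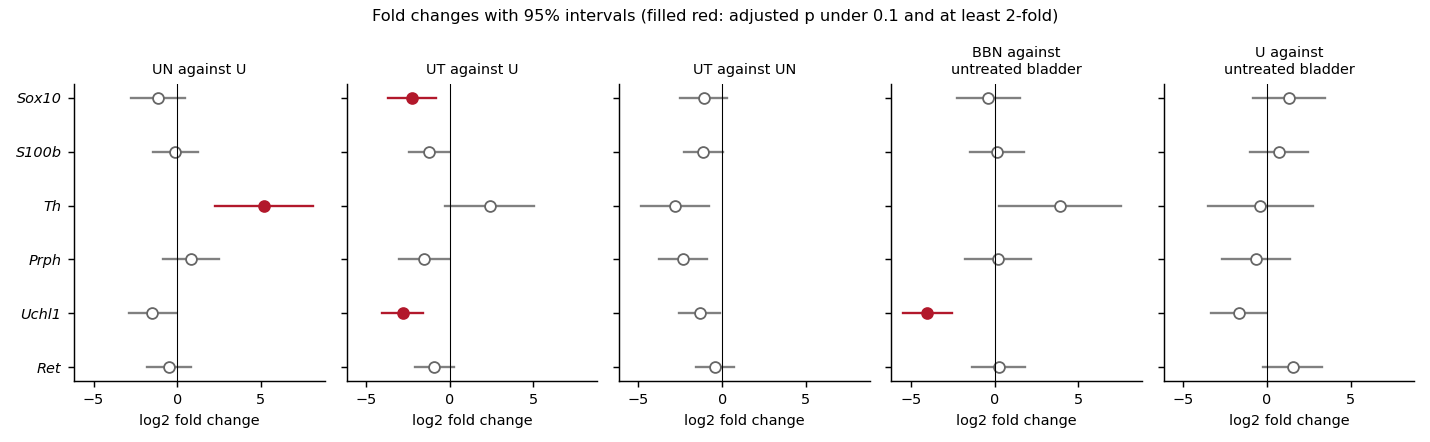
Log2 fold changes (horizontal axis) of the 6 tested members in 5 comparisons, with 95% intervals from the edgeR standard errors as bars. Filled red points were called, namely Th in UN against U, Sox10 and Uchl1 in UT against U, and Uchl1 in BBN against untreated bladder.

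The third question was whether the side with cancer differed from the side without. None of the 6 tested members was called by edgeR in UT against UN, where 2.56% of all genes were, and 3 of them, Th, Prph and Uchl1, had an unadjusted p under 0.05. That background rests on single libraries, since the 485 genes called became 28 without UN 6, 1885 without UN 7 and 1473 without UT 9. All 6 estimates were negative, with a median of -1.23 against -0.05 over all genes. DESeq2 called 1 member, Prph (-2.45, adjusted p = 0.0321).

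Prph ran from 0 to 4.42 CPM in UN with a median of 1.19, and from 0 to 0.815 in UT with a median of 0.312. Of the 7 UN libraries, UN 3 at 0, UN 9 and UN 7 lay within the UT range. The log2 fold change was -2.34 (SE 0.74, adjusted p = 0.101 by edgeR), just short of the limit. It passed when UN 3, UN 7, UT 6, UT 7 or UT 9 was left out, with the smallest adjusted p, 0.0426, without UN 3. With the mouse as a fixed replicate block it did not pass (-2.07, adjusted p = 0.708).

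Within the 7 mice that gave both sides, Prph was lower on the cancer side in 5, with a median difference of -0.629 CPM. Sox10 and Uchl1 were each lower in 5 mice as well. Th was lower in 4 mice and at 0 on both sides in the other 3, and in no mouse was it higher on the cancer side. In edgeR Th passed without UN 3 or UN 7. S100b and Ret were each lower in 4 mice and higher in 3. Dbh, at no more than 4 counts in any library of either group, was higher on the cancer side in 4 mice and lower in 2. Of 13 pan-neuronal genes tested, 2 were called lower in UT than in UN and none higher. Elavl4, an RNA-binding protein of neurons, averaged 0.0679 CPM in UT and 0.760 in UN, and Rbfox3, the antigen NeuN, averaged 0.494 and 2.29. The muscle genes Myh11 and Acta2 were called lower too, as 2 of 8 smooth muscle genes. These calls come from the edgeR fit without the mouse as a block. In voom with a variance for each group, no gene was called lower in UT than in UN, so all of them were lost.

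**Figure D4:**
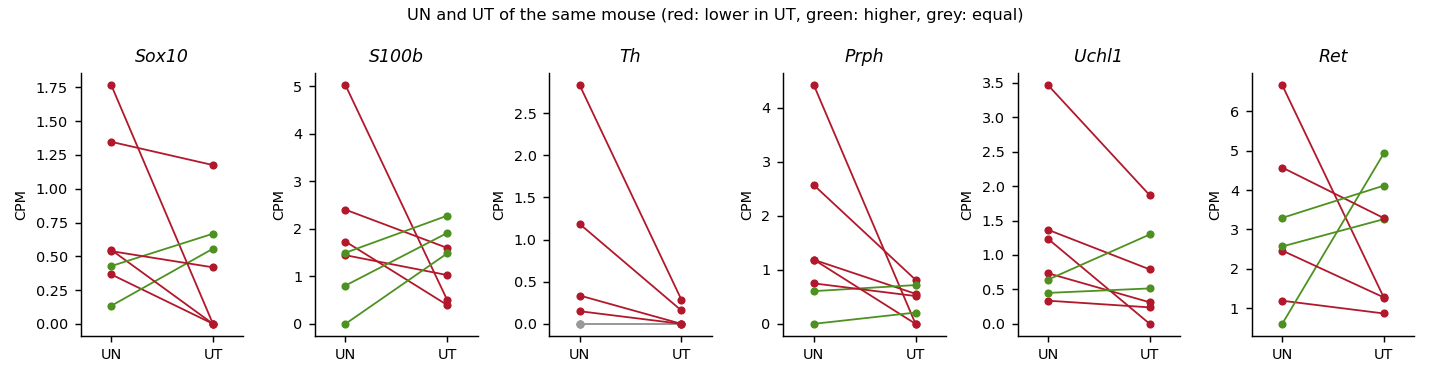
CPM of 6 members (vertical axes, different for each gene) in UN and UT of the same mouse, with 1 line for each of 7 mice. Red lines fall from UN to UT, green lines rise and grey lines stay equal, and Prph, Sox10 and Uchl1 each fell in 5 of 7 mice.

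The fourth question concerned the same carcinogen in the bladder. Of the 6 tested members, 1 was called in BBN bladder against untreated bladder, at a background of 30% of all genes (8.17% called lower). That gene was Uchl1. The median log2 fold change of the 6 was 0.16, against 0.23 over all genes.

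Uchl1 stood at 12.5, 12.6 and 12.7 CPM in the 3 untreated bladders. In the 10 BBN bladders it was at 0 in BBN bladders 3 and 4, with a median of 0.481 CPM and a highest value of 1.93 in BBN bladder 5. The groups did not overlap, and the log2 fold change was -4.01 (SE 0.75, adjusted p = 2.89e-04 by edgeR), about 16.2-fold lower. It was called in each alternative, with fold changes from -4.475 to -3.70. Urothelial genes fell as well, 5 of 8 called lower, with sums of 1543 to 10043 CPM in BBN bladder and 21157 to 22208 in untreated bladder. Smooth muscle genes summed to 1014 to 7616 and 9510 to 11411 CPM, with 3 of 8 called lower, and the part of either in the Uchl1 level was not tested. Uchl1os, an antisense transcript that overlaps the Uchl1 start, averaged 0.593 CPM in BBN bladder and 0.550 in untreated bladder, and whether counting used the strand was not given in the sources used here.

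The sequence before the Uchl1 start is shown because Uchl1 changed most clearly in both organs. It covers chr5:66675871-66676120, plus strand, 250 bases upstream of the RefSeq start on GRCm38.p6, read 5′ to 3′. No CRE, no TATAAA (in 12.4% of the 32851 promoters) and no GC box was found, so it has no capitals.
Uchl1: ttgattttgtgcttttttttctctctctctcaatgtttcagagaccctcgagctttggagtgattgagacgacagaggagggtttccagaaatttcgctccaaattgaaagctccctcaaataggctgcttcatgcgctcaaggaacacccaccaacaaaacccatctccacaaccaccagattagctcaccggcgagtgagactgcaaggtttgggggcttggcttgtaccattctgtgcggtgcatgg

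Th held 31 counts in 8 of 10 BBN bladders, from 0 to 0.947 CPM with a median of 0.389. The 3 untreated bladders held 1 count, 0.0602 CPM in untreated bladder 3. The groups overlapped, the ratio was 12.8 (95% counting interval 2.13 to 522), and the edgeR test did not pass (adjusted p = 0.111). Th was tested in 12 other settings and called in 5, with an adjusted p of 0.0602 in DESeq2. The fit without BBN bladder 6 was among the 5. Th also passed without BBN bladder 7 or 8. Dbh held 23 counts in 5 of 10 BBN bladders, with the highest level, 1.41 CPM, resting on 5 counts in the shallow BBN bladder 3, against 4 counts in the untreated bladders, a ratio of 2.38 (interval 0.812 to 9.45).

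The remaining members did not differ detectably in the bladder. Sox10 ran from 0 to 2.06 CPM after BBN and from 0.241 to 1.27 without, with an interval for the log2 fold change of -2.27 to 1.52. The corresponding intervals were -1.48 to 1.74 for S100b, -1.77 to 2.16 for Prph and -1.33 to 1.84 for Ret. Each included 2-fold changes in both directions. Melanocytes also use Sox10, and 3 of 6 melanocyte genes, Dct, Tyr and Tyrp1, were called higher in BBN bladder, where 21.8% of all genes were called higher. The list summed to 30.5 to 59.1 CPM in the 3 shallow BBN bladders, 10.9 to 23.1 in the other 7 and 13.5 to 16.8 in untreated bladder. Sox10 stood at 0, 0.281 and 0.128 CPM in BBN bladders 1, 3 and 4, the 3 shallow ones. The part of melanocytes in the Sox10 level was not tested.

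The organs themselves differed in Uchl1. In U it ran from 1.46 to 4.04 CPM, all below the 12.5 of the lowest untreated bladder, and in each of the 3 untreated mice both organs could be compared, with a median difference of -9.49 CPM. In the fit over all groups the log2 fold change of U against untreated bladder was -1.69 (SE 0.84, adjusted p = 0.212 by edgeR), and none of 6 members was called at a background of 15.2%, with no member at an unadjusted p under 0.05. That fit used a spread shared with the BBN groups, whose common dispersion was 0.376 to 0.719, against 0.0388 in U and 0.0243 in untreated bladder. With the mouse as a fixed replicate block, fitted on the 9 untreated libraries, 3 members were called. Uchl1 was lower in U (-1.63, SE 0.24, adjusted p = 2.22e-04 by edgeR), Ret was higher (1.67, SE 0.36, adjusted p = 0.00243) and Sox10 was higher (1.37, SE 0.51, adjusted p = 0.0396). The same 9 libraries without a block also gave 3 calls, with -1.62, 1.61 and 1.38. S100b, Ret and Sox10 were higher in the ureters than in the bladder in 3 of 3 mice.

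Between UN and BBN bladder, 2 organs of the same treated mice, none of 6 members was called, at a background of 18.3% and with no member at an unadjusted p under 0.05. DESeq2 also called none. Uchl1, which differed between the organs of untreated mice, had means of 1.18 ± 1.08 CPM in UN (SD, n = 7) and 0.665 ± 0.646 in BBN bladder (SD, n = 10). Ret averaged 3.05 ± 2.06 and 1.73 ± 1.88 CPM, and was higher in UN in 5 of 7 mice.

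The change with BBN was then compared between ureter and bladder, as the difference between UN against U and BBN against untreated bladder. No member was called, at a background of 2.23%, and Uchl1 alone had an unadjusted p under 0.05. Its difference was 2.53 on the log2 scale (95% interval 0.45 to 4.61, adjusted p = 0.292 by edgeR), the fall being larger in bladder. With the mouse as a random-effect replicate block it was called (2.59, SE 0.76, adjusted p = 0.0638 by limma), as it was in limma voom without a block. For Th, whose estimates were positive in both organs, the interval of the difference, -3.37 to 5.90, left its size undetermined.

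Genes of the pathways around the members were examined from lists by role. These comparisons share the U, UT, UN and bladder libraries, so their counts are not independent of each other. The noradrenergic list held 10 genes of catecholamine handling and sympathetic identity, of which 8 were tested. In UN against U, 3 of 8 were called higher and none lower, where 8.4% of all genes were called higher. Slc6a2 averaged 0.351 CPM in U, 2.06 in UN and 2.29 in UT, with a log2 fold change of 2.51 in UN (SE 0.73, adjusted p = 0.0297 by edgeR). Npy, the neuropeptide released with noradrenaline, was called higher in UN (3.81, adjusted p = 0.0622), as was Scg2, a granin of secretory vesicles (2.79, adjusted p = 0.0562). In UT against U, 2 of 8 were called higher, Slc6a2 and Scg2, beside 16.5% of all genes. In BBN against untreated bladder, 3 of 8 were called higher, Slc6a2 and Scg2 among them, beside 21.8% of all genes. Both counts lay within about 1 or 2 genes of these backgrounds. Th was called in neither of these comparisons, and Dbh was not tested.

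Of 13 pan-neuronal genes tested, none was called in UN against U and 3 were called lower in UT against U, namely Rbfox3, Syp and Sncg. Sncg, a synuclein that adipocytes also make, averaged 101 CPM in U and 42.0 in UT. In the bladder 3 of 13, Elavl4, Snap25 and Sncg, were called higher after BBN, a share near the 21.8% of all genes called higher. Of 6 sensory genes, the heat receptor gene Trpv1 was called lower in UT (10.9 CPM in U, 2.16 in UT), and 2 were called higher, among them Calca, which encodes calcitonin gene-related peptide and calcitonin. In the cholinergic and nitrergic list, no gene of 5 tested was called in UN or UT against U. In BBN bladder 2 of 5, the choline transporter Slc5a7 and the nitric oxide synthase Nos1, were called higher, where 21.8% of all genes were. The list summed to 1.03 to 26.5 CPM there, with a median of 5.41 and the highest sum in the shallow BBN bladder 3. In untreated bladder it summed to 0.967 to 4.35 CPM. For none of the 5 was the difference between organs called.

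Ret acts with ligands and GFRα co-receptors. Of these, Gdnf was near the limit of detection, with group means of 0.0805 to 0.347 CPM, while Artn, the artemin ligand, averaged 3.97 to 17.8 CPM and was not called for BBN in either organ. Of the 4 co-receptors, 3 were called lower in UT against U, where 9.99% of all genes were, and none in UN against U. Gfra1 (-1.36, SE 0.47), Gfra3 (-1.84, SE 0.66) and Gfra4 (-1.27, SE 0.46) had adjusted p values of 0.0275, 0.0324 and 0.0340 by edgeR, while Gfra2, at 9.93 CPM in U and 6.74 in UT, was not called. In the bladder 2 of 4 were called lower, where 8.17% of all genes were, and Gfra2 and Gfra4 were not called. There Gfra1 averaged 19.2 CPM without BBN and 1.51 with it (-3.50, SE 0.56, adjusted p = 4.73e-05 by edgeR), and Gfra3 22.7 and 0.985 CPM (-4.33, SE 0.81, adjusted p = 3.03e-04). Ret itself was called in neither comparison. Muscle genes were called lower in both, adipocyte genes in UT and urothelial genes in the bladder, and their part in the co-receptor levels was not tested. Etv4 and Dusp6, targets of receptor tyrosine kinase signalling through ERK in many cells, were called higher with BBN in UN, UT and bladder.

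Among neurotrophin genes, Ngfr, the low-affinity receptor p75, averaged 1.40 CPM in U, 5.16 in UN and 16.4 in UT, and 0.378 and 9.95 in untreated and BBN bladder, and was called higher in all 3 comparisons with BBN. Ntrk2, the receptor of BDNF, moved the other way in the ureter, from 108 CPM in U to 25.2 in UN and 13.6 in UT, and was called lower in both. The ligands Bdnf and Ntf5 were called higher in UN and UT.

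**Figure D5:**
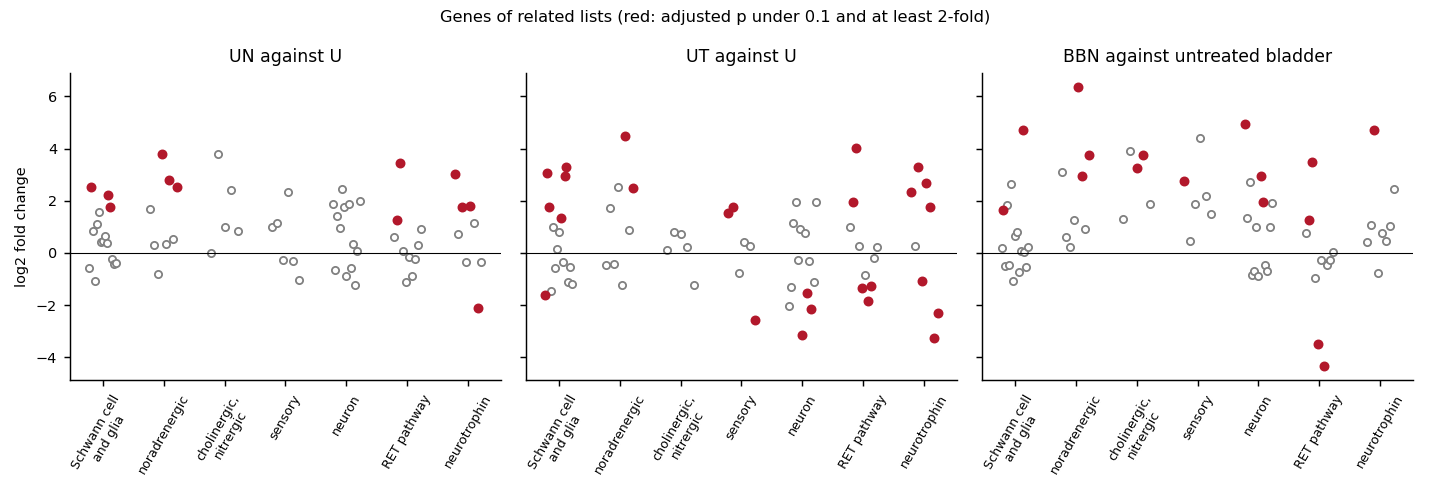
Log2 fold changes (vertical axis) of the tested genes in 7 lists of nerve-related genes in 3 comparisons, with called genes in red. Called noradrenergic genes were all higher, whereas RET pathway genes were called in both directions.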

How the data were processed

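RNA was sequenced by WTS in 37 libraries. Per the labels, TopHat2 v2.1.1 and Cuffdiff v2.2.1 were among the tools, and the counting program, its annotation and its use of strand were not given in the sources used here. The authors deposited 1 table of estimated counts per gene symbol, not normalized, with 21.1% of nonzero values fractional (Uchl1 in 12 of 33 libraries with a count). Levels are CPM from the deposited values, and values rounded to whole numbers entered the tests. Columns of no sample numbered 0.

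All 5 groups were fitted in edgeR 4.0.16 (R 4.3.3; quasi-likelihood, TMM scaling, default filter of filterByExpr, Benjamini-Hochberg over 18974 genes). Alternatives used limma 3.58.1 and DESeq2 1.42.0, RLE scaling, other filters, left-out libraries, the RNA integrity number as covariate and the mouse as a replicate block. Scripts were tested on simulated data. Totals of 3557697 to 18793560 counts limit low genes: counting intervals are exact, at 95%, and cover counting error only.

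Mouse numbers in the labels tie libraries to animals, so that the design is paired. Deviations from group means correlated within a mouse by a median of -0.0178 for UT and UN (other pairs -0.00203), -0.100 for UN and BBN bladder (0.160), 0.101 for UT and BBN bladder (-0.0199), -0.0692 for both U sides (-0.182) and 0.000773 for U and untreated bladder (-0.00244). Both sides of 1 mouse, in U and in UT 5, entered as separate libraries, and p-values then rest in part on repeated sampling of 1 animal. No 2 libraries of a group agreed within sampling noise.

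The members and lists were chosen with earlier results of these data known. Named genes are the members, the 3 most expressed genes of each list, every called gene of the nerve-related lists, and the 5 genes most like each member. Tubb3, Gdnf, Upk2, Dct, Tyrp1, Dip2a and Uchl1os were named after their values were seen. Some genes of these lists are not reported here. Gene coordinates follow GENCODE vM21 (GRCm38), promoters RefSeq (GRCm38.p6), which had 5 of 7 members. The TMM scale was also tried for CPM.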

Additional observations from a re-analysis of the deposited data

Results flagged for a closer look

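In 21 groups of 4 to 10 libraries (3 groups by 7 genes), 7 single libraries stood far above the rest of their group. Chance alone would single out about 1 group in 20 of well-measured values, a rate that does not apply to Th and Dbh, since a lone count among libraries at 0 is always singled out. UN 2 was highest for Th, at 2.83 CPM with the next library at 1.19. The same library was highest for Dbh, at 0.274 CPM. U 1R held 0.0696 CPM of Th, which is 1 count with the other 5 libraries at 0. U 2R held 0.160 CPM of Dbh with its 5 companions at 0. BBN bladder 3, a shallow library, held 1.41 CPM of Dbh with the next at 0.630. UN 4 held 3.47 CPM of Uchl1 with the next at 1.37. BBN bladder 5 held 6.45 CPM of Ret with the next at 2.42.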

How the results depend on the processing

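The alternatives gave 1280 fold changes of members, of which 1165 kept direction and side of the threshold, 57 came past it, 5 fell short and 53 turned sign, and 678 of them left out 1 library. Each member that turned sign had not been called. Uchl1 kept its calls in UT against U and in the bladder under every alternative run. Th and Dbh, with counts in the fewest libraries (19 and 17), are limited by depth. The cause of the other changes was not tested. The limma voom fit without a block and the fit of untreated libraries alone were chosen after seeing the data.

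The number of members called in UN against U went from 1 to 0 with DESeq2 (which gave Th no adjusted p), with a mean CPM of at least 1, without the 4 shallow libraries or with separate fits by organ (Th was then not tested), and with summed libraries (adjusted p = 0.252). With a variance for each group in voom it was 2, and over left-out libraries 0 to 1. In UT against U it went from 2 to 4 with DESeq2, without the shallow libraries and with separate fits, to 5 with group variances, and to 1 with a mean CPM of at least 1 and with summed libraries. It ranged from 2 to 4 over left-out libraries, the 4 coming without UT 7. In UT against UN it went from 0 to 1 (Prph) with RLE scaling, DESeq2, a mean CPM of at least 1, without UT 9, without BBN bladder 6 and with separate fits, and ranged from 0 to 2 over left-out libraries, the 2 coming without UN 3 or UN 7. In the bladder it went from 1 to 2 (Th) with RLE scaling, DESeq2, group variances, without BBN bladder 6 and without mice 8 to 10, and ranged from 1 to 2, the 2 coming without BBN bladder 6, 7 or 8. In U against untreated bladder it went from 0 to 3 with group variances, with the fixed replicate block and with untreated libraries alone, and to 1 with the random-effect replicate block and in voom without it. In UN against BBN bladder it was 1 (S100b, 1.40, adjusted p = 0.0868 by edgeR) without the shallow libraries. For the difference between organs it was 1 with group variances, with the random-effect replicate block and in voom without it. With the random-effect replicate block, and in voom without it, the 1 member called in UN against U was Uchl1 in place of Th, and S100b made 3 in UT against U. No other member's call changed with a replicate block. Of all genes, counts ranged over alternatives and left-out libraries from 230 to 2609 around 1776 in UN against U, 3187 to 5716 around 5019 in UT against U, 2 to 1885 around 485 in UT against UN, 2150 to 7742 around 5694 in the bladder, 1522 to 5682 around 2890 in U against untreated bladder, 1741 to 5372 around 3478 in UN against BBN bladder and 53 to 1713 around 423 for the difference between organs. On the TMM scale Uchl1 averaged 11.2 CPM in untreated bladder.

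Log2 fold changes turned sign as follows. In UN against U, Prph was -0.053 with group variances, -0.082 with the random-effect replicate block and -0.054 without it in voom, and S100b was 0.035 without shallow libraries and -0.76 to 0.080 over left-out libraries. In the bladder, with group variances, with the random-effect replicate block and without it in voom, S100b was -0.61, -0.60 and -0.61, Prph -0.69, -0.70 and -0.69, and Ret -0.60, -0.60 and -0.60. There, S100b was -0.57 without shallow libraries and -0.56 with RNA integrity, and Prph -0.45 and -0.39. Over left-out libraries there, Prph ran from -0.21 to 0.82, S100b from -0.14 to 0.28, Ret from -0.16 to 0.85 and Sox10 from -0.80 to 0.18. In U against untreated bladder Th was 0.017, 0.016 and 0.016 in the same 3 fits and -1.60 to 1.20 over left-out libraries, and Prph -1.02 to 0.0079. In UN against BBN bladder Prph was 0.016 with group variances, 0.013 in voom without a block, 0.0080 with no filter and 0.31 without shallow libraries, and S100b was -0.28 with the fixed replicate block. Over left-out libraries there, S100b ran from -0.18 to 0.75, Th from -0.60 to 1.31 and Prph from -0.43 to 0.24. For the difference between organs S100b was 0.61 without shallow libraries and 0.39 with RNA integrity, and over left-out libraries Th ran from -0.32 to 2.47, S100b from -0.90 to 0.025 and Prph from -0.028 to 0.999.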

Other observations

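Over the 37 libraries, the 5 genes whose levels were most like that of Sox10 by Spearman correlation included Sh3bgrl (0.87), Gdf1 (0.86), Cers1 (0.86) and Zcchc24 (0.85). Gdf1 and Cers1 had the same mean in 4 of 5 groups, and the reads of these neighbouring genes may not be separable. With Pearson correlation, and with group means subtracted, 4 of the 5 genes were again among the 5 most like Sox10.

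For Ret the list by Spearman correlation was Srms, Rasip1, Tek, Ptprb and Nrbp2 (0.79 to 0.83), of which Tek, Ptprb and Rasip1 are endothelial genes. After group means were subtracted it held the Schwann cell gene Cdh19 (0.81), and 1 of 5 genes was shared. For Th, Dbh and Prph, 0 of the 5 genes by Spearman correlation were among the 5 by either other measure, and these lists are not described further.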
